A study of Mus musculus with 30 samples.

Results

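The stroma of mouse brain beside tumours of the human breast cancer line Brx50 was compared with the stroma of tumour-free mouse brain, in 5 of the 30 RNA-sequencing libraries of the series. The members were chosen by the labels alone: 3 libraries of brain exposed to Brx50 and 2 libraries of unexposed brain. Brx50 is a line of circulating tumour cells (CTCs), which are tumour cells isolated from blood. It carried GFP and luciferase, and 100000 of its cells were placed in the left ventricle of the heart of female NSG mice aged 6 to 8 weeks that had received slow release estrogen. Tumour tissue was dissociated by machine, cells without GFP were sorted as stroma, and total RNA was taken from 50000 sorted cells per library. The control libraries came from brain with no CTC exposure. The labels give the same protocol text for them, and do not say whether those mice carried estrogen. The other libraries came from bone and lung, where Brx50 and 3 other lines had been used.

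Some properties of the model bound what can be read from it. NSG mice lack mature T, B and natural killer cells, which leaves myeloid cells as their main immune cells. All exposed brain libraries involve 1 tumour line. The sort was negative, so any mouse cell that survived dissociation could enter it, and the labels name no mouse for any library. Replicate spread may thus be technical in part, and it is all that the p-values rest on. In sorted bulk samples, fewer cells of a type and less RNA per cell cannot be told apart.

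As background, microglia are the resident macrophages of the brain. In injury and disease they lower genes of their resting state and raise genes of phagocytosis, lysosomes and antigen presentation, while monocytes and neutrophils can enter from blood. Fc gamma receptors are the receptors by which such cells bind antibody, and they signal through immunoreceptor tyrosine motifs and kinases such as Syk. Around brain tumours, astrocytes, microglia and incoming myeloid cells form the border between tumour and nerve tissue.

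Levels below are in CPM, the counts of a gene scaled to the same total in every library. They are given for exposed replicates 1, 2 and 3 and then, after "against", for control replicates 1 and 2. Fold changes are log2, exposed relative to control. Their standard error (SE) was derived from edgeR's quasi-likelihood F-test, as the absolute log2 fold change over the square root of F. Unless stated otherwise, p-values are adjusted by Benjamini-Hochberg over the 16734 genes tested, with a threshold of 0.05. Each list of genes is described by how many of its tested members lay above both controls in all 3 exposed libraries, or below both. The filter for low counts used these same 5 libraries. A gene could pass it through the exposed libraries or the controls alone, so these counts depend in part on the filter. Of all genes tested, 3337 (19.9%) lay above, 3113 (18.6%) lay below and the other 10284 overlapped the controls. The median log2 fold change was 0.03.

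Total counts ran from 4289012 to 9685820 in the exposed libraries, with the lowest in replicate 1, and were 6270956 and 7504650 in the controls. The exposed libraries differed far more among themselves than the controls did: edgeR's common biological coefficient of variation was 0.595 in them and 0.133 in the controls. Exposed replicate 2 stood apart in several lists. Its neutrophil genes summed to 4484 CPM, against 106 and 234 in exposed replicates 1 and 3. Its olfactory and eye genes summed to 240.0 CPM, against 18.6 and 63.5, and its mitochondrially encoded RNA was 1.73% of counts, against 4.40% and 3.18%. Exposed replicate 1 had the fewest genes detected, 16344, against 19139 to 24146 in the others. The brain label held in all 5 libraries for Mbp, a myelin gene, and for P2ry12, a receptor gene of microglia: each was higher in every brain library than in any of the 12 Brx50 and control libraries of bone and lung.

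**Figure D1:**
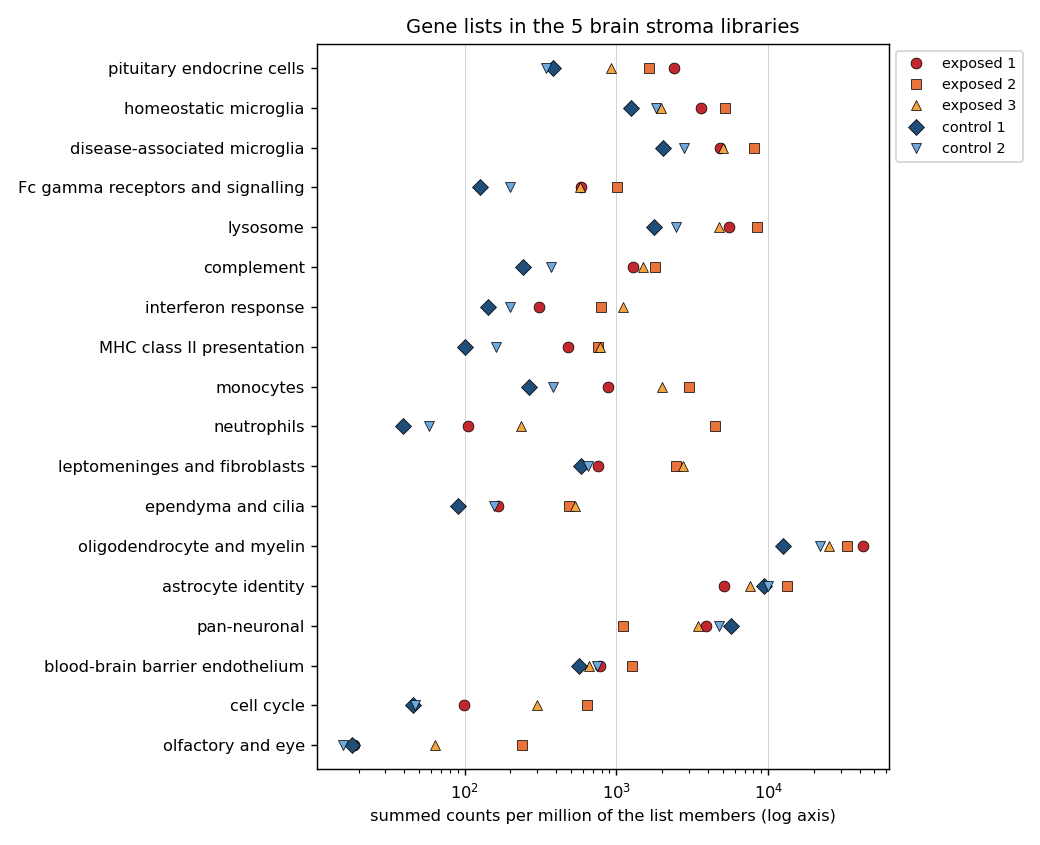
Summed CPM over the members of 18 gene lists (log axis, 1 marker per library) in the 3 exposed and 2 control brain libraries. Fc gamma receptor genes sum to 575 to 1003 CPM in the exposed libraries and 127 to 199.5 in the controls, while pan-neuronal genes sum to 1112 to 3921 against 4756 and 5660.

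Only 1 gene passed the threshold in edgeR, 0.00598% of those tested, while 2272 genes (13.6%) were under 0.05 before adjustment. The called gene was Pomc, the precursor of adrenocorticotropic and melanocyte stimulating hormones. Pomc stood at 169, 162 and 122 CPM against 2.39 and 2.67. It rose by a log2 fold change of 5.84 ± 0.32 (SE; edgeR adjusted p = 0.00933). The call did not hold in every setting: the adjusted p was 0.0808 without exposed replicate 3, 0.221 and 0.242 without control replicates 1 and 2, and 0.143 in a fit of 17 libraries from 3 tissues, while the log2 fold change stayed between 5.64 and 5.94 in all 11 alternatives. DESeq2, a second count test with another model of the spread, called 618 genes higher (3.69%) and 94 lower (0.562%). DESeq2 calls are named as such below, and no edgeR call other than Pomc is implied by them.

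Other hormones of the anterior pituitary had the same pattern as Pomc. Gh, growth hormone, stood at 950.3, 902 and 280.5 CPM against 0.797 and 1.199, with a log2 fold change of 9.38 ± 0.85 (edgeR adjusted p = 0.137; DESeq2 adjusted p = 1.19e-43). Prl, prolactin, stood at 875, 416 and 259 CPM against 6.698 and 5.73, with 6.33 ± 0.71 (edgeR adjusted p = 0.210; DESeq2 adjusted p = 2.04e-28). All 3 exposed libraries lay far above both controls for each hormone, and exposed replicate 3 was the lowest of them each time. Pou1f1 (Pit-1), the transcription factor of growth hormone and prolactin cells, stood at 5.36, 2.68 and 1.58 CPM against 0 and 0.133. Pitx1, a pituitary homeobox gene, stood at 1.86, 1.96 and 3.48 CPM against 0.1595 and 0.666. The gonadotropin and thyrotropin side was not detected in the same way: Cga, their common alpha subunit, had counts only in exposed replicate 2 (4.34 CPM). Of the 20 genes on the pituitary list 10 could be tested, and the 5 above were Pomc, Gh, Prl, Pou1f1 and Pitx1. Pou1f1, with 0 and 1 counts in the controls, could pass the filter only through the exposed libraries. The 5 of 10 is thus set in part by the filter and is no separate support. The 2 below were Neurod1, at 11.9, 11.5 and 22.6 CPM against 41.3 and 41.6, and Pcsk1, a hormone convertase, at 5.13, 2.27 and 3.96 CPM against 9.41 and 8.39; both are also made by neurons. Of 16 genes on the list of neuropeptides and the neighbouring hypothalamus only 7 could be tested, and of these 0 lay above and 1 below. Avp and Oxt of that list were too low to test, with at most 2.565 and 0.7995 CPM in any brain library. The list thus says little about hypothalamic tissue in the libraries.

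The same hormones were found in stroma of other tissue. In the 4 libraries of Brx50 bone, Gh stood at 0, 80.6, 39.95 and 158.7 CPM (bone controls 0 to 0.231), Prl at 0, 54.6, 3.78 and 513 (controls 0 to 0.231), and Pomc at 1.23, 29.2, 36.3 and 23.8 (controls 0.0941 to 0.463). The neuronal gene Snap25 stood at 0, 29.1, 26.0 and 18.0 CPM in these bone libraries (controls 0.0941 to 0.308), so the same 3 of 4 bone libraries held pituitary and neuronal transcripts. Omp, a gene of olfactory neurons, reached 271 CPM in Brx50 bone replicate 3. In brain Omp stood at 6.995, 141 and 19.8 CPM against 3.35 and 2.67 (DESeq2 adjusted p = 0.00339). Of 6 tested olfactory and eye genes it was the 1 above both brain controls in all 3 exposed libraries. In lung, Pomc and Gh were at most 0.706 CPM in every Brx50 and control library. The part of neighbouring tissue taken with the brain or the bone in the hormone result was not tested.

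**Figure D2:**
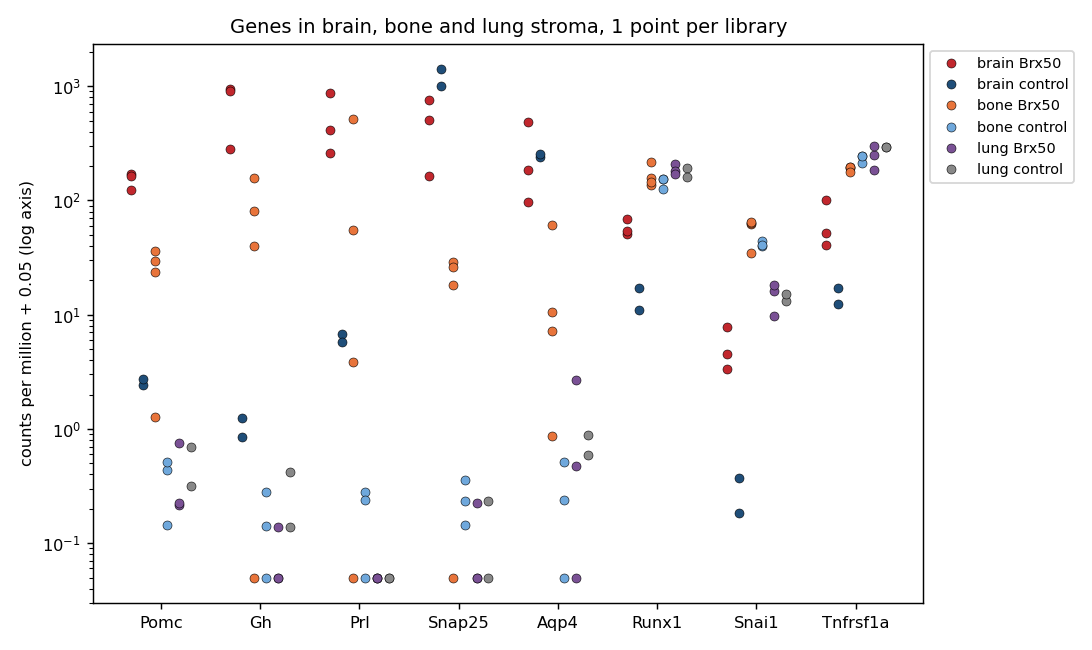
CPM plus 0.05 (log axis, 1 point per library) of 8 genes in Brx50 and control libraries of brain, bone and lung. The pituitary genes Pomc, Gh and Prl are high in all 3 exposed brain libraries and in 3, 3 and 2 of 4 Brx50 bone libraries above 20 CPM, while Runx1, Snai1 and Tnfrsf1a differ between groups in brain and lie close together in the groups of bone and lung.

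The Pit-1 factor named above binds the promoters of Gh and Prl, so the promoter of Prl is shown as the 250 bases before its RefSeq start (GRCm38.p6, chr13:27057320-27057569, plus strand), with matches to ATGNATA in capitals on either strand.
Prl: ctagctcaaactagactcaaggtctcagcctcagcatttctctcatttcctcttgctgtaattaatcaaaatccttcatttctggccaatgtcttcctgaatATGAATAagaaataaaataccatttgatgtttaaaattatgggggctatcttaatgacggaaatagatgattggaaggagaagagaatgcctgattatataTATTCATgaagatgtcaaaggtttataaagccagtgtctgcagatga
The match occurs 2 times in it, and 0 times in the same window of Pomc. In the RefSeq table, 2 of 15 pituitary list genes with a promoter held a match, against 9.16% of all 27025 genes there. Gh is named only.

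Genes of macrophages and of lysosomes came next. The 10 genes with the smallest p among higher genes of at least 10 CPM were the 3 hormones and 7 others: Fcgr1, Lgals9, Ptpn6, Csf2rb, Cd68, Lgals3 and Gusb. Each of the 7 lay above both controls in 3 of 3 exposed libraries, and their edgeR adjusted p was 0.210. Fcgr1, the high-affinity receptor for immunoglobulin G, stood at 66.9, 83.5 and 73.02 CPM against 6.698 and 11.99 (log2 fold change 2.93 ± 0.33; DESeq2 adjusted p = 2.63e-11). Lgals3, galectin-3, a lectin of activated microglia and macrophages, stood at 34.5, 45.5 and 45.8 CPM against 2.23 and 5.33 (3.40 ± 0.45). Csf2rb, the shared receptor chain for the growth factors GM-CSF, IL-3 and IL-5, stood at 41.97, 70.1 and 62.2 CPM against 6.86 and 10.1 (2.71 ± 0.35). The exposed libraries lay within a factor of 2 of each other for each of the 7 genes.

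Fc gamma receptors and their signalling genes lay above the controls without exception. All 12 members were tested, 12 lay above both controls (19.9% of all genes did), 12 were higher by DESeq2, and the median log2 fold change was 2.29. The activating receptor Fcgr3 stood at 79.7, 84.5 and 31.5 CPM against 10.2 and 16.5, and Fcgr4 at 3.73, 7.54 and 6.34 CPM against 0.1595 and 0.3998. Fcgr2b, the inhibitory receptor, stood at 10.7, 33.9 and 30.1 CPM against 6.22 and 5.197. The activating and the inhibitory receptors thus lay above the controls together. Fcer1g, the signalling chain of the activating receptors, stood at 32.9, 59.1 and 35.3 CPM against 5.26 and 10.5. Of its kinases, Syk stood at 36.6, 112 and 46.9 CPM against 10.2 and 13.5 and Lyn at 64.1, 126 and 62.1 CPM against 21.5 and 34.9. The phosphatases that damp the signal were above as well. Ptpn6 (SHP-1) stood at 50.8, 52.6 and 40.4 CPM against 7.18 and 10.3 and Inpp5d (SHIP-1) at 116, 199 and 112 CPM against 32.7 and 51.2. Plcg2 and Vav1, which carry the signal on, had log2 fold changes of 2.03 and 2.15.

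The promoter of Fcgr1 is shown for its match to GAGGAAG, the core bound by PU.1, the myeloid transcription factor (RefSeq, GRCm38.p6, chr3:96293970-96294219, minus strand, written 5′ to 3′ with the match on either strand in capitals).
Fcgr1: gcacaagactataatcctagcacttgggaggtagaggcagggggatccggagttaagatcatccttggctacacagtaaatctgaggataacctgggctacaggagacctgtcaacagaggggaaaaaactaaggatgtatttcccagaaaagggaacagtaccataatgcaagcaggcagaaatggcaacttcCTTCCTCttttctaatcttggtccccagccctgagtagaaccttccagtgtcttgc
In the RefSeq table, 5 of 10 Fc gamma list genes with a promoter held a match, against 12% of all genes there. The motifs and the promoters printed were chosen after the values had been seen. A match describes these letters and is not evidence of binding.

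Lysosomal genes lay above the controls in the same libraries. Of 18 tested, 17 lay above both controls and 14 were higher by DESeq2, with a median of 1.71. Cd68, the lysosomal membrane protein of macrophages, stood at 78.3, 90.3 and 62.4 CPM against 12.1 and 18.1 (log2 fold change 2.29 ± 0.30). Gusb, beta-glucuronidase, stood at 81.6, 104 and 74.9 CPM against 19.9 and 25.2 (1.88 ± 0.26), and Grn, progranulin, at 258, 366 and 276 CPM against 46.1 and 77.4. The cathepsins Ctsb, Ctsd, Ctsh, Ctss and Ctsz were all above: Ctsd stood at 1260, 1979 and 778 CPM against 232 and 427 and Ctsz at 199.8, 251 and 164 CPM against 31.6 and 50.6. Tpp1, a peptidase, was the single exception, at 56.9, 126 and 46.9 CPM against 38.8 and 54.2, with exposed replicate 3 between the controls.

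Microglial genes were high, but the exposed libraries differed in genes of the resting state. Of 16 tested genes of homeostatic microglia 9 lay above both controls and 0 below, with a median of 1.40 and 5 DESeq2 calls. Tmem119, a marker of resident microglia, stood at 227, 337 and 76.98 CPM against 39.4 and 60.5 (2.03 ± 0.60; edgeR adjusted p = 0.290). P2ry12, the purine receptor of resting microglia, stood at 295, 314 and 51.6 CPM against 92.7 and 107. Replicates 1 and 2 were about 3 times the controls and replicate 3 was below both, and the sign of the fitted P2ry12 difference turned in limma-voom with quality weights. Gpr34 and Siglech, 2 more genes of the resting state, also had their lowest exposed value in replicate 3, at 19.3 and 22.8 CPM.

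Genes of disease-associated microglia were followed as a further list. It shares members such as Ctsb and Ctsd with the lysosomal list, so the counts of these lists overlap. All 20 genes of the list were tested, 17 lay above, 0 below, 13 were higher by DESeq2 and the median was 1.64. Spp1, osteopontin, stood at 200.3, 421 and 472 CPM against 25.04 and 60.9 (3.03 ± 0.56; DESeq2 adjusted p = 1.02e-06). Trem2, a lipid receptor, stood at 169, 149.6 and 49.7 CPM against 21.4 and 29.9 and its adaptor Tyrobp at 112, 141 and 74.1 CPM against 13.6 and 26.6. Clec7a, a glucan receptor, stood at 19.8, 44.9 and 23.8 CPM against 3.19 and 4.93, Itgax at 52.5, 88.5 and 37.5 CPM against 4.62 and 14.4 and Gpnmb at 53.4, 45.2 and 21.9 CPM against 4.94 and 12.4. The 3 members that overlapped the controls were Lpl, Igf1 and Fabp5. Igf1, the growth factor of phagocytic microglia in development, stood at 23.6, 18.5 and 9.19 CPM against 16.3 and 7.86. Apoe stood at 1651, 3096 and 2011 CPM against 1110 and 1471, with all 3 exposed libraries above both controls.

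Monocyte, border macrophage and neutrophil genes differed widely among the exposed libraries. Of 14 monocyte genes 9 lay above (median 2.85, 6 DESeq2 calls). Ccr2, the chemokine receptor that brings monocytes out of marrow, stood at 4.66, 43.4 and 25.5 CPM against 0.638 and 1.07 (4.74 ± 1.03; DESeq2 adjusted p = 1.14e-04), and Lyz2, lysozyme, at 334, 1000 and 257 CPM against 43.1 and 89.3. Of 10 border macrophage genes tested 5 lay above. Siglec1, a sialic acid receptor, stood at 13.1, 67.3 and 89.97 CPM against 3.03 and 6.396 and Ms4a7 at 2.56, 15.4 and 20.1 CPM against 0.478 and 0.666, while Mrc1 overlapped, at 21.2, 34.7 and 18.5 CPM against 13.9 and 19.1. Of 13 tested neutrophil genes 7 lay above both controls, with and without exposed replicate 2, which had much the higher levels. Among all genes tested, 19.9% lay above with that replicate and 24.9% without it. S100a8 stood at 0, 472 and 19.8 CPM against 2.87 and 3.86, Ltf, lactoferrin, at 0, 650.2 and 9.98 CPM against 1.44 and 0.666 and Ngp at 8.63, 854 and 30.4 CPM against 3.67 and 1.47. Exposed replicate 2 was many times higher than any other library, and the median of the neutrophil genes was 5.48 with it and 1.78 without it. Lymphocyte markers were low: the 18 on the list summed to 21.4 to 26.1 CPM in the exposed libraries and 15.3 and 15.5 in the controls. Of the 3 tested 2 lay above, Il7r, the interleukin 7 receptor, at 10.96, 14.9 and 6.34 CPM against 3.19 and 4.66 and Ighm, an immunoglobulin heavy chain, at 6.06, 5.68 and 6.18 CPM against 3.67 and 3.998, with 0 DESeq2 calls. Cd3e had 0.133 CPM in 1 control and no counts in the other brain libraries, and Ncr1 had none in any of them.

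**Figure D3:**
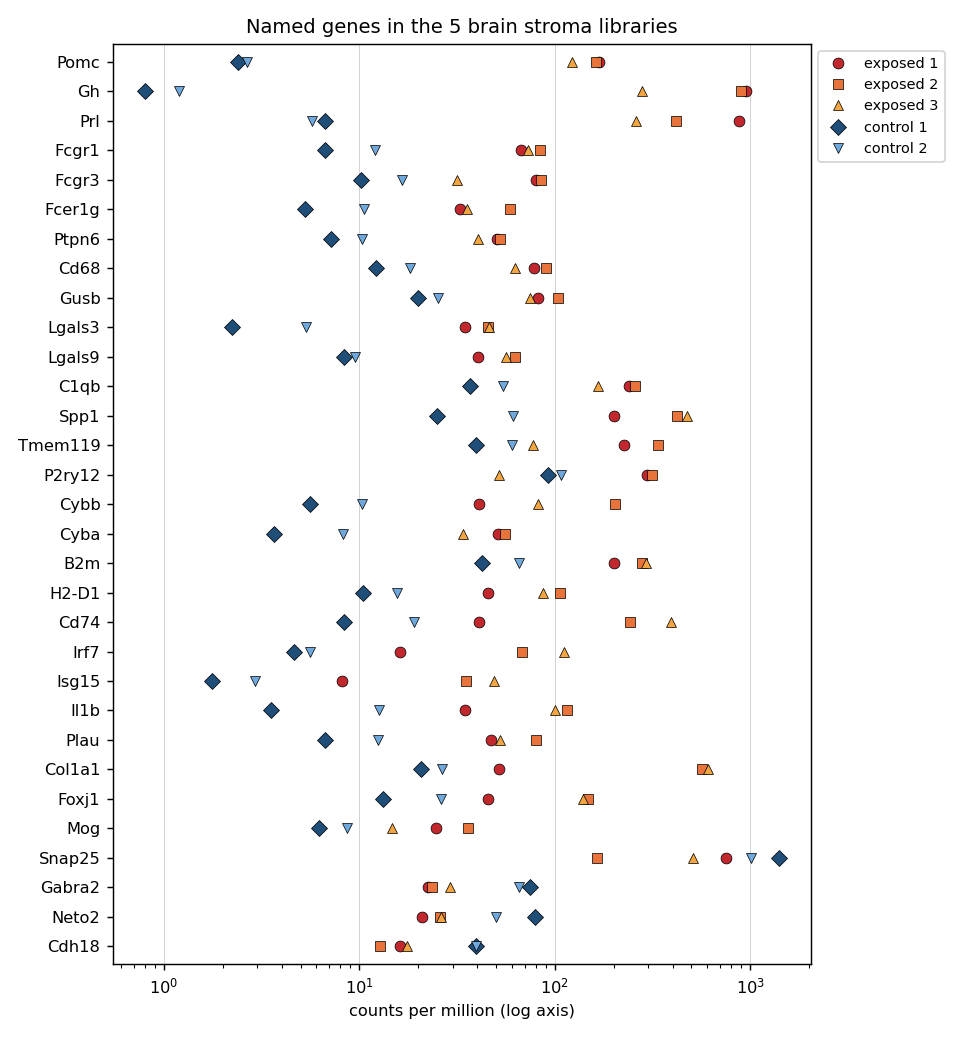
CPM (log axis, 1 marker per library) of 31 named genes in the 5 brain libraries; a library with 0 counts has no marker. From Pomc to Mog every exposed library lies above both controls except for P2ry12, where exposed replicate 3 is at 51.6 CPM, and from Snap25 to Cdh18 every exposed library lies below both.

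Complement, which tags material for uptake by microglia, was followed over 16 genes. Of these 13 were tested, 9 lay above, 0 below and 8 were higher by DESeq2, with a median of 2.23. The chains of C1q stood at 504, 460.4 and 275 CPM against 57.9 and 90.2 for C1qa, 240.4, 258 and 167 CPM against 36.8 and 54.4 for C1qb and 277, 316 and 185 CPM against 40.2 and 60.9 for C1qc. Their log2 fold changes were 2.43, 2.23 and 2.30, each with an edgeR adjusted p of 0.210. C3, the central component, stood at 11.7, 159.6 and 239.5 CPM against 4.62 and 7.46 (4.43 ± 1.21), and C4b at 41.3, 99.6 and 334 CPM against 18.2 and 28.6. The C1q chains were even across the exposed libraries, whereas C3 and C4b were low in replicate 1 and highest in replicate 3. The receptors C3ar1 and C5ar1 stood at 41.97, 87.8 and 64.2 CPM against 14.2 and 25.2 and 8.16, 54.5 and 26.8 CPM against 2.55 and 4.797.

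Interferon response genes lay above in 13 of 20 and below in 0, 13 were higher by DESeq2, and the median was 2.67. Irf7, the factor that drives type I interferon, stood at 16.1, 68.1 and 111 CPM against 4.62 and 5.597 (3.61 ± 0.82; DESeq2 adjusted p = 1.19e-04). Isg15, a ubiquitin-like protein, stood at 8.16, 35 and 48.9 CPM against 1.75 and 2.93 (3.64 ± 0.83), and Mx1, an antiviral GTPase, at 7.46, 33.4 and 27.4 CPM against 1.12 and 1.199. Replicate 1 was the lowest exposed library for each. For Ifit3 and Ifit1 it fell among or under the controls: Ifit3 stood at 5.36, 50.4 and 70.96 CPM against 7.33 and 8.66 and Ifit1 at 4.197, 33.2 and 36.9 CPM against 5.58 and 6.396.

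The promoters of Isg15 and Ifit3 are shown because one gene was above the controls in every exposed library and the other was not. Matches to GAAANNGAA, the core of the interferon-stimulated response element, are in capitals on either strand; the 3 matches in Isg15 overlap. The windows are the 250 bases before the RefSeq starts (GRCm38.p6, chr4:156200819-156201068, minus strand, and chr19:34583279-34583528, plus strand).
Isg15: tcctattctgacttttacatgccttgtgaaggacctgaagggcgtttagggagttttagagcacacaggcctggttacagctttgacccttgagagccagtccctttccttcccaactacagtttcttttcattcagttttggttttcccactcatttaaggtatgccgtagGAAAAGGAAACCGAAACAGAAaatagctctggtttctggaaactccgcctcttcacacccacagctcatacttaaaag
Ifit3: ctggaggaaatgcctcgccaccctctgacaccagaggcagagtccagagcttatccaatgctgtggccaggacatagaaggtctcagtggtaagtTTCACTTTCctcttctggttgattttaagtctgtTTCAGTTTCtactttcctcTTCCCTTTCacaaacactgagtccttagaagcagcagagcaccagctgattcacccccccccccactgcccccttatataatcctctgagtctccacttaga
Each holds 3 matches. In the RefSeq table, 10 of 15 interferon list genes with a promoter held at least 1, against 8.18% of all genes there and 1 of 10 Fc gamma genes.

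Antigen presentation genes were above in part. For class I, 5 of 11 tested lay above (median 2.21, and 1.29 without exposed replicate 2): B2m, the light chain, stood at 202, 279 and 294 CPM against 42.4 and 65.3 (2.21 ± 0.32; DESeq2 adjusted p = 2.99e-08) and the heavy chain gene H2-D1 at 45.2, 106 and 87.1 CPM against 10.4 and 15.6 (2.55 ± 0.43). The proteasome subunit genes Psmb8 and Psmb9 had 0 counts in exposed replicate 1. H2-K1 stood at 0.466, 3.304 and 1.74 CPM against 0.1595 and 0.666; class I heavy chain genes are near copies of each other, so their counts are uncertain. For class II, 4 of 7 tested lay above (median 2.46). Cd74, the invariant chain, stood at 41.04, 243 and 394 CPM against 8.29 and 19.1 (3.99 ± 0.99), and H2-Eb1 at 3.03, 12.1 and 11.9 CPM against 0 and 0. With both controls at 0, H2-Eb1 was at least 46.4-fold higher, taking 3 counts over the pooled controls as the floor. It passed the filter for low counts through the exposed libraries alone. H2-Ab1 overlapped the controls, at 0, 4.13 and 13.9 CPM against 0.1595 and 0.267, with no counts in exposed replicate 1.

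Among cytokines 13 of 18 were tested, 7 lay above and 6 were higher by DESeq2. Il1b, the inflammatory interleukin, stood at 34.5, 115 and 100.1 CPM against 3.51 and 12.7 (3.29 ± 0.73). Tgfb1, a suppressive growth factor, stood at 58.1, 95.5 and 43.7 CPM against 13.2 and 21.4. Tnf was not tested, at 0, 1.34 and 0.9504 CPM against 0 and 0.3998. Of 20 tested chemokine genes 13 lay above and 12 were higher by DESeq2 (median 2.75). Ccl2, which attracts monocytes through Ccr2, stood at 10.96, 9.29 and 10.1 CPM against 0.957 and 2.13. Ccl3 and Ccl4, microglial chemokines, stood at 48.5, 59.2 and 33.3 CPM against 8.29 and 12.8 and 37.8, 64.2 and 24.7 CPM against 6.22 and 11.3. Ccr1, their receptor, stood at 14.5, 39.9 and 20.1 CPM against 0.797 and 1.199. In contrast, Cxcl12 and Cx3cl1, made by vessels and neurons, overlapped the controls, at 92.6, 117 and 71.9 CPM against 91.2 and 117 and 165, 91.4 and 159 CPM against 157 and 129.7. Ligand and receptor could both be followed for 1 pair of the checkpoint list. Lgals9, galectin-9, stood at 40.3, 62.3 and 56.4 CPM against 8.29 and 9.46 (2.52 ± 0.30) and Havcr2 (Tim-3), which binds it, at 25.6, 36.96 and 36.3 CPM against 10.4 and 14.1. Cd274 (PD-L1) overlapped, at 1.63, 28.7 and 19.6 CPM against 2.87 and 6.53, with exposed replicate 1 under both controls. Of the 12 checkpoint genes tested 9 lay above and 5 were higher by DESeq2 (median 1.73).

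Immediate early genes, which cells switch on within minutes of stimulation and also during dissociation, lay above the controls with these groups. Of 16 tested 14 lay above, 11 were higher by DESeq2 and the median was 1.64, with Fos at 315, 693 and 454 CPM against 67.5 and 207 and Junb at 258, 519 and 312 CPM against 55.8 and 118. The median was 1.10 without control replicate 1 and 2.44 without control replicate 2. Its part in the other results was not tested.

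The phagocyte NADPH oxidase, which makes superoxide, lay above both controls for the subunits Cybb, Cyba, Ncf1 and Ncf4. Cybb, the catalytic subunit, stood at 41.04, 202 and 81.6 CPM against 5.58 and 10.3 (3.69 ± 0.73, DESeq2 adjusted p = 6.24e-06). Cyba, its partner in the membrane, stood at 51.1, 55.9 and 33.7 CPM against 3.67 and 8.26 (2.91 ± 0.45), and Ncf1, the organiser subunit, at 65.5, 159.5 and 53.4 CPM against 12.4 and 19.9 (2.45 ± 0.53). Ncf4 lay above in all 3 as well, and Rac2 in 2 of 3. The antioxidant enzymes were mixed. Gpx1, glutathione peroxidase 1, stood at 84.6, 129 and 75.7 CPM against 33.3 and 35.7 (1.42 ± 0.28; DESeq2 adjusted p = 0.00240). Gpx4, the enzyme that reduces lipid peroxides, overlapped, at 56.4, 60.3 and 65.9 CPM against 59.3 and 65.7. Sod2, the mitochondrial superoxide dismutase, lay below both controls, at 126, 92.8 and 124 CPM against 205 and 172. Of the whole list of 22, 12 lay above, 2 below and 7 were higher by DESeq2.

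Semaphorin 4D, a membrane ligand that collapses axons and binds plexins on glia and vessels, was followed with its receptors. Sema4d stood at 93.3, 246 and 134 CPM against 55.02 and 76.6 (1.19 ± 0.42; edgeR adjusted p = 0.321; DESeq2 adjusted p = 0.107). All 3 exposed libraries lay above both controls, and replicate 2 was the highest. Plxnb2 stood at 261, 495 and 329 CPM against 132 and 178 (1.16 ± 0.33), and Plxnb3, the plexin of oligodendrocytes, at 93.5, 120.4 and 113 CPM against 32.5 and 44.2. Plxnb1, the high-affinity receptor, overlapped, at 202, 479 and 242 CPM against 162 and 209. Cd72, the receptor for Sema4d on immune cells, stood at 5.83, 8.98 and 33.1 CPM against 0.638 and 1.07 (4.15 ± 1.00; DESeq2 adjusted p = 0.00152). Arhgef11 and Arhgef12, the exchange factors that link B plexins to RhoA, lay below both controls, Arhgef12 at 402, 444 and 499 CPM against 595 and 592. Of the 12 genes 7 lay above, 2 below and 3 were higher by DESeq2. The median was 1.11, and 0.58 without exposed replicate 2.

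**Figure D4:**
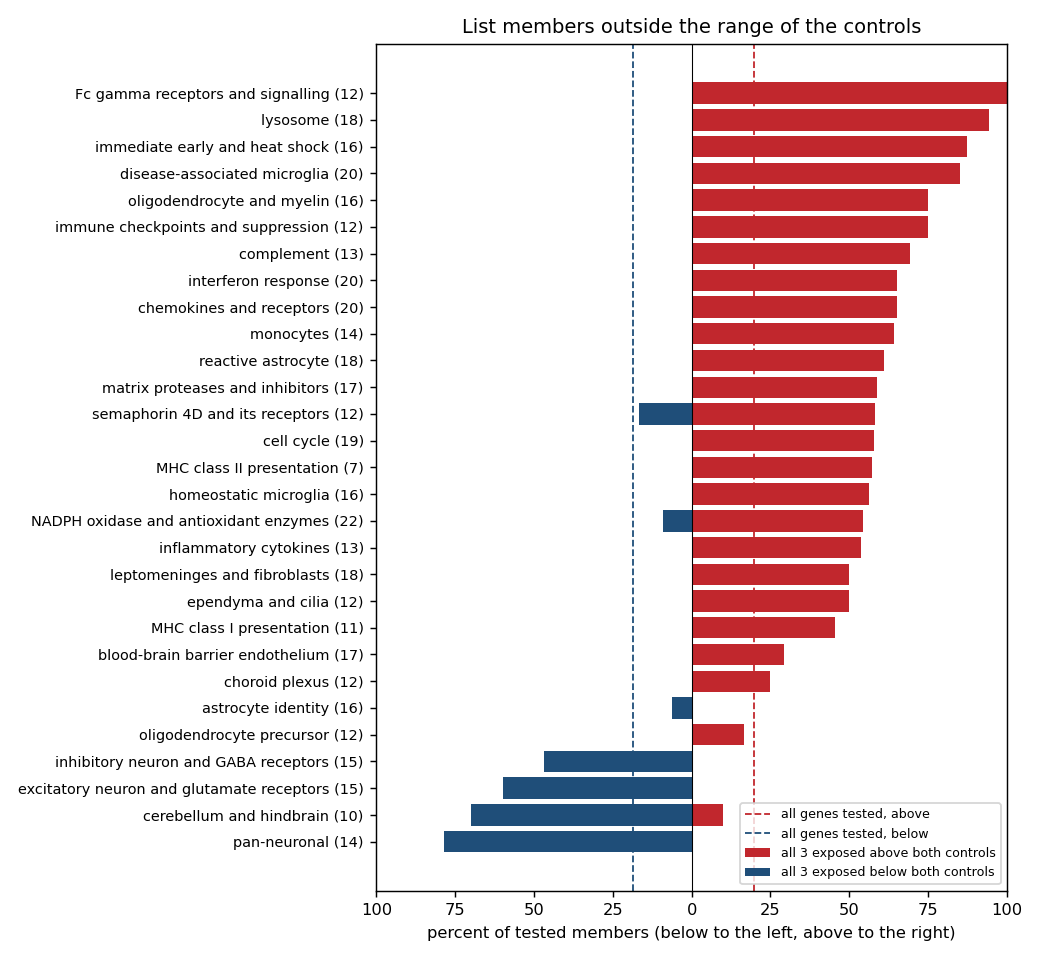
Percent of the tested members of 29 lists (number tested in parentheses) that lay above both controls in all 3 exposed libraries (red, to the right) or below both (blue, to the left). Dashed lines mark the shares among all genes tested, 19.9% above and 18.6% below; Fc gamma genes reach 100% above and pan-neuronal genes 78.6% below.

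Glial lists split by cell type. Of 16 astrocyte identity genes 15 overlapped the controls and the median was 0.02, or -0.71 without exposed replicate 2 and 0.35 without exposed replicate 1. Aqp4, the water channel of astrocyte end feet, stood at 96.8, 487 and 184 CPM against 239 and 257, and Gja1, a gap junction gene, at 153, 1003 and 249 CPM against 263 and 321. Exposed replicate 2 was above the controls and replicates 1 and 3 below for both genes. Without replicate 2, 10 of 16 astrocyte genes lay below both controls, where 26.4% of all genes did. Reactive astrocyte genes lay above in 11 of 18 (median 2.02, 8 DESeq2 calls), among them Vim, vimentin, at 79.04, 339 and 485 CPM against 52.9 and 77.8, and Cd44 at 15.6, 106 and 57.3 CPM against 11.6 and 11.9. Gfap, the filament of reactive astrocytes, overlapped, at 174, 138 and 564 CPM against 247 and 327, and was above both controls only in replicate 3. Several of the reactive genes, such as Vim and Cd44, are also made by myeloid cells and fibroblasts.

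Oligodendrocyte genes lay above in 12 of 16, below in 0, and the median was 0.98 with 6 DESeq2 calls. Mag, a myelin adhesion protein, stood at 246, 509 and 475 CPM against 79.4 and 121, and Mog, a protein of the outer myelin surface, at 24.7, 35.8 and 14.7 CPM against 6.22 and 8.66 (1.69 ± 0.46). Mbp, myelin basic protein, stood at 29720, 21940 and 15740 CPM against 7737 and 14710. Precursor genes differed: 10 of 12 tested overlapped and the median was -0.01 (0.36 without exposed replicate 1), with Pdgfra, their growth factor receptor, at 36.4, 35.8 and 59.7 CPM against 52.3 and 50.6.

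Neuronal genes lay below the controls. Of 14 pan-neuronal genes 11 lay below both controls and 0 above (18.6% of all genes lay below), with a median of -0.83, or -0.45 without exposed replicate 2. DESeq2, edgeR and limma-voom each called 0 of them, and 0 had an unadjusted edgeR p under 0.05. Snap25, a synaptic fusion protein, stood at 754, 164 and 509.7 CPM against 1404 and 1012 (-1.38 ± 0.62; edgeR adjusted p = 0.397). Replicate 2 was the lowest exposed library for Snap25, Syt1 and Nefl. Syt1, a calcium sensor of synaptic vesicles, stood at 402, 134 and 364 CPM against 673 and 507, and Nefl, a neurofilament, at 203, 36.03 and 155 CPM against 316 and 265. Of 15 excitatory genes 9 lay below and 1 was lower by DESeq2, and of 15 inhibitory genes 7 lay below with 1 DESeq2 call. The genes below included receptors: Gria1, Gria2, Gria3, Gria4, Grin2a, Grin2b, Grik2 and Grm5 of glutamate and Gabra2, Gabra5 and Gabrb2 of GABA. Gria2 stood at 319, 251 and 231 CPM against 536 and 396. Slc17a7 and Gad1, which mark excitatory and inhibitory cells, overlapped, at 315, 100.2 and 353 CPM against 382 and 332 and 193, 64.1 and 114 CPM against 253 and 167.

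The lower genes with the smallest p were also neuronal in part, and their exposed libraries lay close together. Gabra2, a GABA receptor subunit, stood at 22.4, 23.6 and 28.99 CPM against 74.5 and 65.3 (-1.53 ± 0.25; edgeR adjusted p = 0.210; DESeq2 adjusted p = 1.72e-04). Neto2, an auxiliary subunit of kainate receptors, stood at 20.98, 25.9 and 26.3 CPM against 79.6 and 50.1 (-1.46 ± 0.29), and Cdh18, a cadherin of the brain, at 16.1, 12.8 and 17.6 CPM against 39.5 and 39.7 (-1.41 ± 0.29). Ube3a, a ubiquitin ligase that is imprinted in neurons, stood at 96.8, 99.5 and 111 CPM against 266 and 176 (-1.16 ± 0.26). The other 6 were Map2k4, a kinase upstream of JNK, Epm2aip1, Nexmif, Lurap1, Zdhhc2, a palmitoyltransferase, and B3galt1, a galactosyltransferase. Their log2 fold changes ran from -1.37 to -1.10, and each lay below both controls in 3 of 3 exposed libraries.

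Border and matrix genes formed a further group. Of 18 leptomeningeal and fibroblast genes 9 lay above and 5 were higher by DESeq2 (median 1.55, and 0.95 without exposed replicate 2). Col1a1, a chain of fibrillar collagen, stood at 51.5, 564 and 607 CPM against 20.6 and 26.5 (4.04 ± 1.04; DESeq2 adjusted p = 5.02e-05), and Col3a1 at 13.99, 259.7 and 549.8 CPM against 13.6 and 11.2. Replicates 2 and 3 carried this difference, and replicate 1 lay near the controls. Dcn, decorin, was under both controls in replicate 1, at 0.466, 41.7 and 54.96 CPM against 7.18 and 9.33. Apod, an apolipoprotein of fibroblasts and glia, stood at 176, 311 and 375 CPM against 84.5 and 94.7 (1.62 ± 0.37). Of 12 ependymal genes 6 lay above, with Foxj1, the master factor of motile cilia, at 45.7, 147 and 139 CPM against 13.2 and 26.2 (2.42 ± 0.58).

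Matrix proteases and their inhibitors lay above in 10 of 17 tested, with 7 DESeq2 calls and a median of 2.31. Plau, urokinase, stood at 46.9, 80.01 and 52.3 CPM against 6.698 and 12.4 (2.58 ± 0.39; edgeR adjusted p = 0.210; DESeq2 adjusted p = 3.99e-06), with all 3 exposed libraries above both controls. Mmp9 stood at 7.69, 126 and 9.98 CPM against 1.91 and 3.73, with replicate 2 far above the rest. Of 15 TGF-beta genes 7 lay above (median 0.66, and 0.40 without exposed replicate 2). Tgfbr2, the ligand-binding receptor, stood at 149, 214 and 146 CPM against 41.6 and 61.4 (1.66 ± 0.29), and Tgfbi, a matrix protein induced by the pathway, at 35.4, 97.05 and 169.8 CPM against 5.58 and 10.9 (3.55 ± 0.73). The ligand Tgfb2 overlapped, at 10.03, 30.2 and 19.3 CPM against 18.5 and 22.2.

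Vessel genes stayed closer to the controls. Of 17 tested genes of blood-brain barrier endothelium 5 lay above (29.4%, against 19.9% of all genes), the median was 0.34 and 1 was called by DESeq2. That median ran from 0.14 without exposed replicate 2 to 0.63 without exposed replicate 3, and was 0.18 and 0.53 without control replicates 1 and 2. Slco1c1, a thyroid hormone transporter of brain vessels, stood at 95.4, 223 and 47.8 CPM against 75.1 and 110.2, and Mfsd2a, a lipid transporter of the barrier, at 5.13, 59.3 and 17.1 CPM against 14.2 and 23.4. Both overlapped the controls. Icam1, an adhesion receptor for leukocytes, stood at 26.1, 44.3 and 32.1 CPM against 3.51 and 10.9 (2.18 ± 0.53; DESeq2 adjusted p = 0.00851), and Vcam1 overlapped, at 40.3, 90.7 and 27.1 CPM against 22.3 and 33.2. Pecam1, a general endothelial marker, stood at 40.8, 48.5 and 32.5 CPM against 26.6 and 41.8. Of 15 tested pan-endothelial and adhesion genes 4 lay above (26.7%) and 1 below. Of 14 pericyte and smooth muscle genes 5 lay above (35.7%) and 0 below. Those above included Cdh5, at 41.04, 60.9 and 47.2 CPM against 21.9 and 34.1, and Eng, at 97.2, 91.6 and 62.1 CPM against 40.5 and 55.2. Acta2 was above too, at 48.03, 47.2 and 31.8 CPM against 14.7 and 19.2 (DESeq2 adjusted p = 0.0324). Cldn5 had 0 counts in all 30 libraries, although Cdh5, another endothelial gene, had counts in all 30, so its 0 is not read as absence.

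Cell cycle genes lay above in 11 of 19, with 8 DESeq2 calls. Mki67, a marker of dividing cells, stood at 15.2, 252 and 106 CPM against 7.33 and 5.46 (4.20 ± 1.11; DESeq2 adjusted p = 1.38e-04). Top2a stood at 0.933, 76.5 and 45.6 CPM against 2.71 and 2.53, with replicate 1 under both controls. The median of the list was 2.69, and 1.57 without exposed replicate 2. Epithelial genes, which mark the tissue of origin of breast tumours, summed to 76.2, 223.6 and 150.3 CPM in the exposed libraries and 97.1 and 84.9 in the controls. Of their 11 tested members 3 lay above, 1 lay below and 2 were higher by DESeq2. Epcam stood at 6.76, 10.01 and 6.65 CPM against 0.478 and 0.267 (4.28 ± 0.82). Krt18 stood at 9.79, 23.1 and 15.8 CPM against 0.797 and 3.73 (2.76 ± 0.75, DESeq2 adjusted p = 0.0160). Krt8 overlapped, at 0, 3.82 and 5.54 CPM against 0.957 and 1.199, with 0 counts in replicate 1. The part of tumour RNA in the mouse counts was not tested.

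The Brx50 difference in brain was then set against the Brx50 difference in lung (3 exposed and 2 control libraries) and in bone (4 and 3), as a contrast of contrasts in a fit of 17 libraries with 20404 genes. The fit treats the libraries as independent, although 3 codes in the titles recur across tissues, in 7 Brx50 libraries. The labels do not say what a code marks, and standard errors and p-values of these contrasts would be affected if it marks a mouse. In edgeR 0 genes (0%) passed the threshold for brain minus lung and 0 (0%) for brain minus bone, while 958 and 2709 had an unadjusted p under 0.05. DESeq2 called 34 and 819, and limma-voom with quality weights 136 and 886. No gene named below therefore passed the main test, and its adjusted p was at least 0.629 against lung and 0.125 against bone.

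The genes with the smallest p for a higher difference in brain overlapped between the tissues, which share the brain libraries. Snai1, a transcription factor of mesenchymal change, stood at 7.69, 3.304 and 4.43 CPM against 0.319 and 0.133 in brain. Its mean was 14.5 CPM in Brx50 lung and 14.1 in control lung, and 56.3 and 41.6 in bone. The difference of log2 fold changes was 4.22 ± 0.71 against lung and 3.91 ± 0.68 against bone. Both brain control values of Snai1 lie under the level of 3 counts, 0.478 and 0.400 CPM. The size of its differences is therefore uncertain beyond the standard errors. Runx1, a factor of blood and myeloid cells, stood at 50.4, 69.2 and 53.7 CPM against 10.8 and 16.9, with differences of 1.79 ± 0.37 and 1.82 ± 0.35. Tnfrsf1a, the main receptor for tumour necrosis factor, stood at 40.6, 102 and 51.8 CPM against 12.3 and 17.2, with 2.22 ± 0.48 and 2.35 ± 0.45. Rab7b, a GTPase of late endosomes, had 2.53 ± 0.55 and 2.84 ± 0.52. In lung and bone, the control libraries already had a higher mean CPM of each of these 4 genes than exposed brain.

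Plau had a difference of 3.30 ± 0.69 against lung and 1.71 ± 0.63 against bone: its mean was 26.5 CPM in Brx50 lung and 46.7 in control lung. Cldn1, a claudin of tight junctions, had 3.86 ± 0.62 against bone and 2.63 ± 0.64 against lung, with 20.3 CPM in Brx50 bone and 48.5 in control bone, and stood at 6.06, 10.4 and 6.97 CPM against 0.797 and 1.599 in brain. Differences against bone were negative for genes of neurons and of other brain cells, such as Aqp4 of astrocytes (-6.44 ± 1.93) and Ptgds, prostaglandin D synthase (-5.07 ± 1.05). Slc4a10, a neuronal bicarbonate transporter, had -6.32 ± 1.16: it was nearly level in brain, at 169.5, 213 and 112 CPM against 193 and 158, and stood at 1.51, 17.01, 22.1 and 58.7 CPM in Brx50 bone against at most 0.463 in control bone. Snap25 likewise had -7.84 ± 1.71. For Pomc the difference was 5.99 ± 1.52 against lung and -0.29 ± 1.09 against bone, where hormone transcripts were also present. Per list, the median difference for the Fc gamma genes was 1.63 against lung and 2.93 against bone, where all genes had -0.04 and -0.15. Some of these genes had a lower mean in Brx50 bone than in control bone, which adds to the difference against bone. Fcgr3 had means of 43.2 and 82.65 CPM there and Inpp5d 140.8 and 247.6, while Fcgr1 went the other way, at 20.7 and 10.7.

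**Figure D5:**
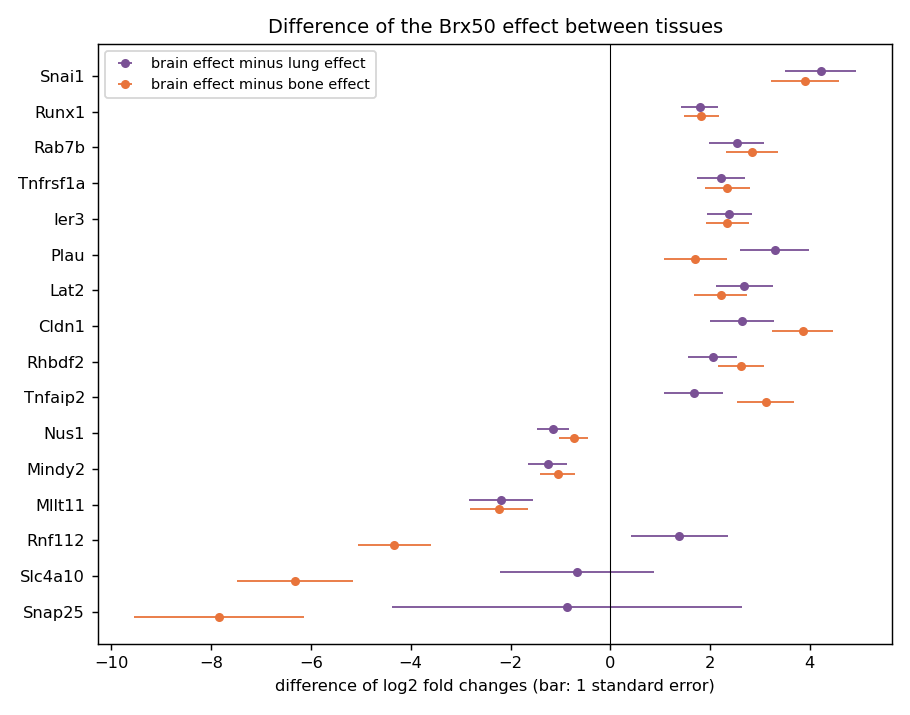
Difference between the log2 fold change of Brx50 exposure in brain and that in lung (purple) or bone (orange) for 16 genes, with 1 standard error. Snai1 lies at 4.22 and 3.91, Snap25 at -7.84 against bone, and no gene passed the adjusted threshold of 0.05.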

How the data were processed

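Gene expression was measured by RNA sequencing of sorted stroma. The authors deposited raw counts per gene, whole numbers used here without change. The tools named, per the submitters' processing notes, are STAR 2.5.2b and HTSeq, and the builds named are GRCm38.p5, mm10, GRCh37 and hg19, with no role for any. No source used here gives the strand setting or how human reads were removed, so reads of antisense genes and of near-identical copies cannot be told apart. Symbols came from GENCODE M21 (GRCm38), for 42462 of 43346 IDs. IDs without a symbol held 0.136% of the counts in brain and stayed in the tests.

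Groups followed the labels. The counts of 3 exposed and 2 control libraries (4289012 to 9685820 per library) went into edgeR 4.0.16 under R 4.3.3 (TMM scaling, filterByExpr, robust quasi-likelihood F-test, two-sided, Benjamini-Hochberg). The tissue contrasts used 17 libraries. CPM used unscaled totals. A count of 0 allows up to 3 counts, for counting error only. No pair of libraries agreed within sampling noise (chi-square per degree of freedom at least 9.64). Alternatives were upper quartile or RLE scaling, testing without the low count filter, DESeq2 1.42.0, limma-voom with quality weights (limma 3.58.1), each brain library left out, and the fit of 17 libraries. Leaving exposed replicate 2 out of the member counts and a replicate block by title code were added after seeing the data. The edgeR test was checked on simulated data with known changes. Those data had the same spread per gene in every library. The check therefore does not cover the wider spread of the exposed libraries here.

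The text names genes past the threshold, the 10 smallest p in each direction with a mean of at least 10 CPM, the key and the 3 most abundant members of each list, and the smallest p of each tissue contrast. Other list members, the promoter motifs and the printed promoters were picked after their values were seen. The groups and the lists were chosen with earlier results of these data known. Some genes that the naming rule or the lists cover are not reported here.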

Additional observations from a re-analysis of the deposited data

How the results depend on the processing

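Only Pomc was called in brain, and the number of calls depended on the test: 1 gene with RLE and with upper quartile scaling, 273 without the low count filter, 845 with limma-voom, 712 with DESeq2 and 0 in the fit of 17 libraries. Leaving out 1 brain library gave 0 to 69 calls. The highest came without exposed replicate 1, and 0 came without exposed replicate 3 or either control; the cause was not tested. For brain minus lung the count was 136 with limma-voom and 34 with DESeq2, for brain minus bone 886 and 819, and 0 with fewer samples or other scaling. Of the 79 log2 fold changes followed, 3 reversed: P2ry12 was at -0.30 with limma-voom, and against bone Pomc was at 0.055 and Gh at -0.21 with the replicate block. Among 572 values of list medians 521 moved by less than the spread of the exposed libraries. That spread was wide, so this is a loose limit and no measure of stability. The astrocyte identity median stayed within it while turning from 0.02 to -0.71 without exposed replicate 2. Printed medians that a left-out library moved by over 1.5 times are given both ways beside their lists. No paired analysis was possible for exposed against control brain because the exposed titles carry codes that the controls do not. Between tissues, 3 codes recur among Brx50 libraries. Deviations of the 5 pairs with the same code correlated at -0.141 to 0.29, and those of pairs with different codes at -0.327 to 0.24. Each deviation was taken within a tissue group of few libraries. These values therefore cannot tell whether a code marks a mouse, and the main fit left the libraries unpaired. A replicate block by code, added after seeing the data, gave 0 calls for brain minus lung and 19 for brain minus bone. Depth limits genes under about 1 CPM, where 3 counts equal 0.310 to 0.699 CPM.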

Other observations

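Regional and metabolic genes were also followed in the 5 brain libraries. Of 10 tested genes of cerebellum and hindbrain 7 lay below both controls in all 3 exposed libraries and 1 above, with a median log2 fold change of -0.83. Cbln3, a gene of cerebellar granule cells, stood at 73.2, 58.02 and 113 CPM against 157 and 216 (exposed replicates 1, 2 and 3, then controls), and Gabra6, a GABA receptor subunit of the same cells, at 33.8, 9.60 and 25.5 against 77.3 and 60.9. All 12 genes of striatum and cortex overlapped the controls. How much of each brain region entered each library was not tested.

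Of 16 tested genes of glycolysis and hypoxia 10 overlapped the controls, close to the share among all genes tested (10284 of 16734). The median was 0.10 (0.34 without exposed replicate 1, 0.30 without control replicate 1 and near 0 without control replicate 2). Pkm, pyruvate kinase, stood at 427, 429.5 and 468 CPM against 452 and 449. Of 16 genes of cholesterol handling 14 overlapped. The 2 above were Abca1 and Abcg1, which export cholesterol, Abca1 at 284, 591 and 318 CPM against 167 and 209.7. Without exposed replicate 2, 6 of the 16 (37.5%) lay below both controls, where 26.4% of all genes did. Of 12 cytosolic ribosomal protein genes 8 lay above, with a median of 0.42, or 0.28 without exposed replicate 1. Of 8 mitochondrially encoded genes tested 5 lay below, with a median of -0.86, or -0.55 without exposed replicate 2.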
